A study of Mus musculus with 32 samples.

Results

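The late days of a differentiation time course in UB/OC-1, a mouse cell line, were compared with its starting point. The late cultures were those labelled days 8, 9, 11 and 14 of experiment A and day 9 of experiment B, all held at 39 °C, and the day 0 cultures were 1 of each experiment at 33 °C. Each of these 7 cultures was measured on 2 oligonucleotide array designs, called a and b, so 10 late arrays and 4 day 0 arrays of the 32 in the series entered the comparison, which was made within each design on 5 against 2 arrays. All cultures are of this line, and no other genotype or agent is named in the labels, which say neither whether interferon was given nor whether cultures were split between days. The labels call day 0 undifferentiated.

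UB/OC-1 is a conditionally immortal line from the sensory epithelium of the embryonic mouse cochlea, the organ of Corti. It comes from a mouse strain with a temperature-sensitive viral T antigen behind an interferon-inducible promoter of a class I histocompatibility gene: the antigen binds pocket proteins and p53 and keeps cells dividing at 33 °C, and it is unstable at 39 °C. Withdrawal of such an antigen is known to let cells leave the cycle, and a cochlear line can then turn on genes of hair cells or of their supporting cells. Every late culture was at 39 °C and each day 0 culture at 33 °C, so temperature, time in culture and loss of the antigen cannot be told apart. One line was used, and in bulk RNA fewer cells of a kind and less RNA per cell cannot be told apart.

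The deposited values are intensities on a linear scale, and many are negative. Values under a floor of 141 on design a or 198 on design b were raised to it before the log2 was taken. A fold is written as "at least" where the dimmer group was at the floor on every array, and called a low estimate where it was so on some. Cultures are called by experiment and day, A8, A9, A11, A14 and B9 late and A0 and B0 at day 0, and the values of a gene are listed in that order. Differences are late minus day 0 on the log2 scale with their standard error. A probe set was called at a limma p under 0.05 after Benjamini-Hochberg adjustment over all 7726 tested, and a call is described as held when it also passed in each fit without 1 of the 7 cultures, with experiment as a replicate block, and in experiment A alone. The spread behind the p-values was estimated over all 16 arrays of a design, the early and middle days included, with different days standing as replicates of a phase, and it may be technical; and the number of arrays limits the precision.

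The 14 arrays were alike in scale. The share of probe sets above the floor was 46.3% to 50.6% late and 44.3% to 48.6% at day 0 on design a, and 35.6% to 40.4% late and 30.9% to 36.6% at day 0 on design b. Arrays of experiment B had a lower ceiling. Their highest intensity was 12592 to 13801 late and 9096 to 9144 at day 0, against 21809 to 55674 late and 22089 to 63467 at day 0 in experiment A. The noise level, taken as the 75th percentile of the size of an array's negative values, was 103 to 325 late and 75 to 188 at day 0. Its part in the results was not tested beyond the fit with noise as a covariate, which called 1015 probe sets.

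Late cultures differed from day 0 in 844 of 7726 probe sets, or 10.9%. Of these, 374 (4.84% of those tested) were higher late and 470 (6.08%) were lower, while 1731 had an unadjusted p under 0.05. The 374 stood for 259 named genes and the 470 for 273. The median called fold was 2.96 among the higher and 2.73 among the lower, and 104 of the higher and 93 of the lower exceeded 4-fold, counting bounds and low estimates. The groups of arrays did not overlap in 366 of the 374 and in 459 of the 470; over all probe sets tested this was so for 10.5% upward and 10.4% downward. The calls held for 96 higher and 138 lower probe sets (1.24% and 1.79% of those tested). The total was 402 without B0, 555 in experiment A alone, 494 when only the late and day 0 arrays were fitted, and 369 with day 9 as the only late day. The median difference over everything tested was 0.11. The members of the gene lists used below were chosen with earlier results of these data known. A list share above that of all probe sets can thus reflect this choice. Counts of a list are descriptions, to be read beside 4.84% higher and 6.08% lower over all probe sets, and no list was tested.

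**Figure D1:**
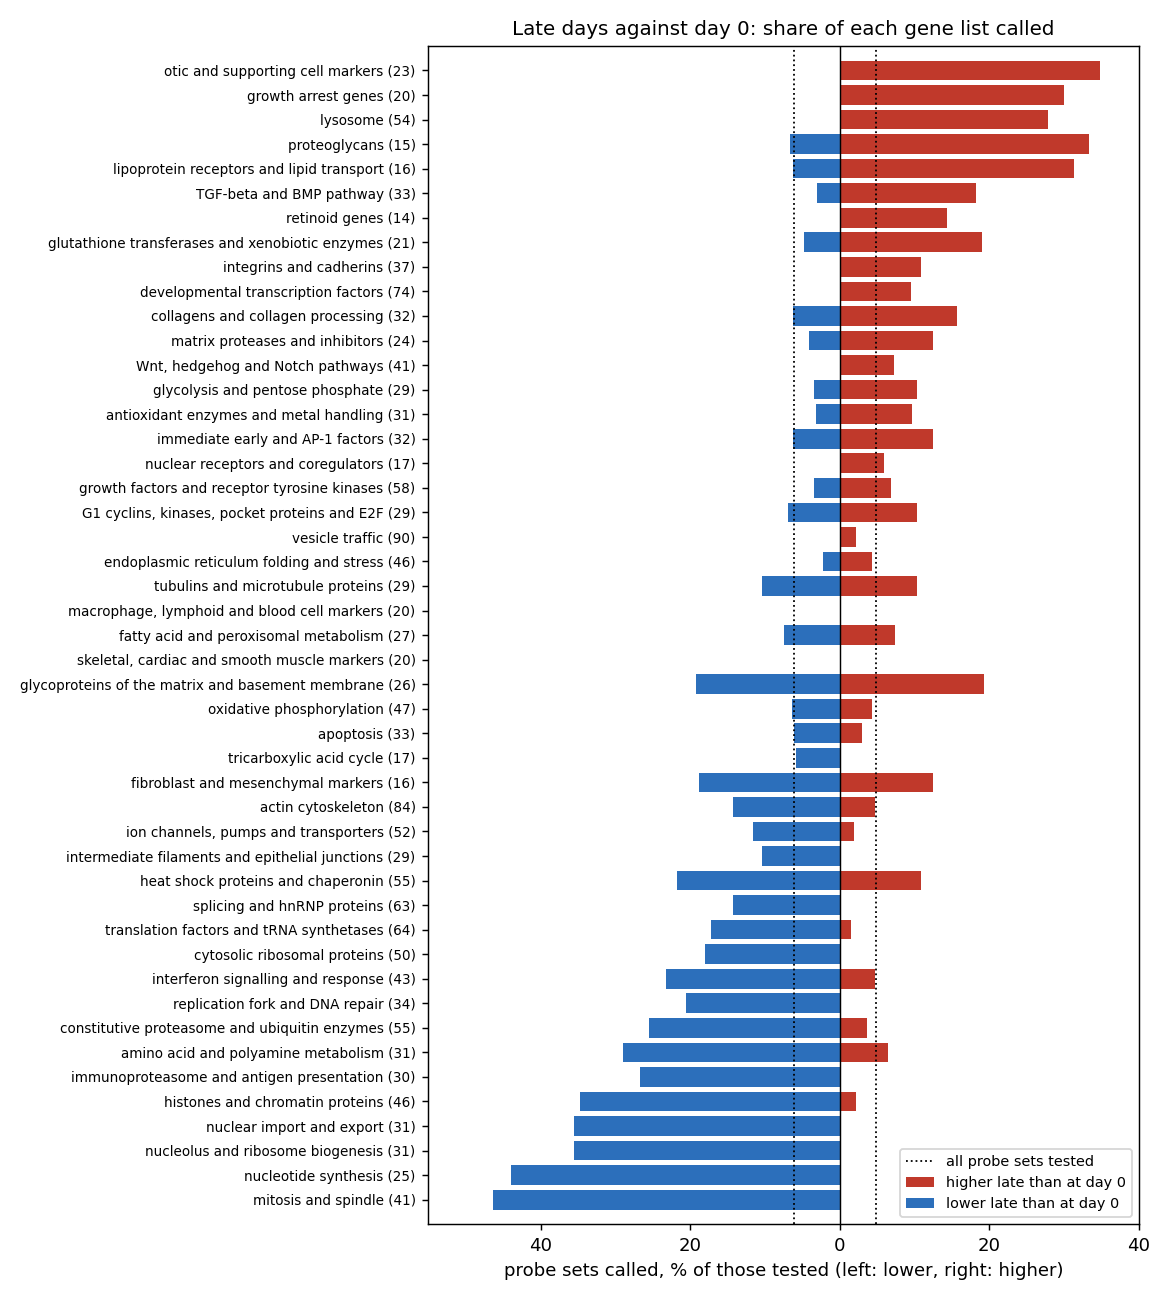
Share of the tested probe sets of each gene list that was called higher (red, to the right) or lower (blue, to the left) late than at day 0, in percent, with the number tested in parentheses and lists of at least 14 tested shown. Dotted lines mark the shares over all probe sets, 4.84% higher and 6.08% lower. Mitosis and nucleotide synthesis reach 46.3% and 44% lower, otic and supporting cell markers 34.8% higher. List members were chosen with earlier results of these data known.

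Many genes of nucleotide synthesis were called lower late. Of 25 tested probe sets of nucleotide synthesis, 11 were lower and none was higher, which is 44% against the 6.08% of all probe sets; the median difference was -1.06 against 0.11 overall. Rrm1, the large subunit of ribonucleotide reductase, measured 128, 244, 274, 358 and 233 late, against 1039 and 1151 at day 0. All late values of Rrm1 lay below those of day 0, 4.57-fold lower as a low estimate (-2.19 ± 0.38, SE, adjusted p = 0.000814). Rrm2, the small subunit, measured 296, 281, 231, 241 and 560 late, against 1477 and 2813 at day 0. It was 6.71-fold lower (adjusted p = 0.000277) without overlap between the groups, on a probe set whose suffix marks a family of sequences; of its other 3 probe sets, 2 were lower as well and 1 was not called.

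Salvage and pyrimidine enzymes were among those called lower. Tk1, thymidine kinase, measured 117, 60, 170, 16 and 132 late, against 513 and 844 at day 0, 4.5-fold lower as a low estimate (adjusted p = 9.08e-05). Cad, which carries the opening steps of pyrimidine synthesis, measured 56, 48, -332, -234 and -55 late, against 366 and 236 at day 0, and no late array was above the floor (at least 2.08-fold lower, adjusted p = 7.93e-05). Umps, which makes uridine monophosphate, measured 58, 132, 146, 189 and 93 late, against 349 and 369 at day 0, 2.38-fold lower as a low estimate (adjusted p = 0.000245). In each of these genes both day 0 cultures stood above every late culture. Nme2, a nucleoside diphosphate kinase, measured 1973, 2274, 1840, 2095 and 1986 late, against 7322 and 6199 at day 0 on its family probe set. Its late values were close together, and it was 3.32-fold lower (adjusted p = 9.08e-05).

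Mitotic genes had the largest share called lower of any list shown. Of 41 probe sets of mitosis and the spindle, 19 were lower (46.3%) and none higher, with a median difference of -0.89. This count was 11 without A0, 12 without A8 and 7 without B0, and 5 of the calls held. Cdk1, the kinase that drives entry into mitosis, measured 1316, 1023, 1052, 906 and 1304 late, against 2708 and 3239 at day 0, 2.67-fold lower (adjusted p = 0.00192). Its cyclin partner Ccnb2 measured 235, 194, 101, 164 and 315 late, against 1302 and 925 at day 0, 4.88-fold lower as a low estimate (adjusted p = 0.000814). Ube2c, which passes ubiquitin to mitotic cyclins for their destruction, measured 374, 287, 330, 293 and 185 late, against 1384 and 981 at day 0, 4.07-fold lower (adjusted p = 0.00143). No late culture reached a day 0 value in any of these genes. Mybl2, a transcription factor of the cell cycle, was at the floor in every late culture (-343, -110, -420, -299 and 82 late, against 281 and 311 at day 0). It was at least 1.49-fold lower (adjusted p = 0.000173), but its day 0 values were themselves not far above the floor of 198. Some calls of this kind did not hold. The call of Anln, an actin-binding protein of the cleavage furrow (6.93-fold lower on its family probe set), was lost without B0, where its fold was 6.49. That of Cks1b, a small Cdk subunit (5.46-fold lower as a low estimate), was lost without B0 (4.10-fold) and in experiment A alone (4.86-fold).

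The promoters of the lower mitotic genes were searched along with those of other groups, and were picked for display after the shares were seen. Well-known promoter elements of such genes, the CCAAT box and the cell cycle homology region (CHR), can be looked for by letter. The 250 bases before the first RefSeq start of each gene (build GRCm38.p6) were searched on both strands for CCAAT and TTTGAA. The CCAAT letters occurred in 10 of the 12 lower mitotic genes with a promoter in the table (83.3%), and TTTGAA in 5 of the 12 (41.7%). Over all 27025 genes of the table, on the arrays or not, the shares were 34.5% and 16.3%. Matches are capitals in the promoters of Ccnb2 (chr9:70421555-70421804, minus strand) and Cdk1 (chr10:69352913-69353162, minus strand), printed 5′ to 3′ along the gene; ATTGG is CCAAT on the other strand, and a match is a description and not a bound site.
Ccnb2: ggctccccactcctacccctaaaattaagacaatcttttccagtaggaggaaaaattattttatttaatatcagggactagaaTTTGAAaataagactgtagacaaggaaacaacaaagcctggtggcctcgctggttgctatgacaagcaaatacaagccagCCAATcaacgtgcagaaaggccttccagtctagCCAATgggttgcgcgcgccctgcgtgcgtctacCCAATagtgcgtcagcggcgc
Cdk1: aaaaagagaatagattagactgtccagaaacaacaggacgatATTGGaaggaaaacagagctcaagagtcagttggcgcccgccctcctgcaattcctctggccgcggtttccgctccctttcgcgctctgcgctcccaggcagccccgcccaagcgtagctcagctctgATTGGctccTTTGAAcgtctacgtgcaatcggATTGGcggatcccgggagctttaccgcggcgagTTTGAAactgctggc

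Histone and chromatin genes, and fewer replication genes, were among the lower. The replication fork and repair list had 20.6% lower, against 6.08% of all probe sets. In the list of histones and chromatin proteins, 16 of 46 probe sets were lower (34.8%) and 1 was higher, with a median of -0.71; the lower count was 5 without B0. H2az1, the variant histone H2A.Z, measured 1736, 1095, 1530, 1231 and 1369 late, against 6047 and 3507 at day 0, 3.35-fold lower (adjusted p = 0.000283). Ezh2, the methyltransferase of histone H3 in Polycomb complexes, measured 106, 72, 30, 130 and 140 late, against 373 and 350 at day 0, at least 2.56-fold lower (adjusted p = 4.59e-05). The late values of both genes lay below day 0 without overlap, and those of Ezh2 were all at the floor. Of 34 replication fork and repair probe sets, 7 were lower (3 without B0 and 11 without B9) and none was higher. Hmga2, an architectural chromatin protein, and Pola2, a subunit of DNA polymerase alpha, went under the floor late: Hmga2 measured -150, 159, -295, 148 and 58 late, against 1992 and 1687 at day 0, and Pola2 measured -77, 30, -186, -111 and 111 late, against 283 and 429 at day 0. The call of Hmga2 held (at least 9.26-fold lower, adjusted p = 3.40e-05), whereas that of Pola2 (at least 2.47-fold lower, adjusted p = 0.00323) ended without B0 (adjusted p = 0.0664).

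Nucleolar genes, which serve the making of ribosomes, were also called in the lower direction alone. Of 31 probe sets of the nucleolus, 11 were lower (35.5%), none was higher and the median difference was -0.97; the count was 6 without B0. Ncl, nucleolin, the abundant nucleolar RNA-binding protein, measured 1170, 1913, 1096, 1099 and 1405 late, against 4674 and 5638 at day 0, 3.93-fold lower (adjusted p = 0.00107). Nop56, a core protein of box C/D particles that methylate ribosomal RNA, measured 95, 95, -31, -6 and 158 late, against 681 and 955 at day 0, 5.59-fold lower as a low estimate (adjusted p = 2.42e-05). Mybbp1a, a nucleolar regulator of ribosomal DNA transcription, measured 223, 268, 155, -13 and 57 late, against 1160 and 865 at day 0, 5.59-fold lower as a low estimate (adjusted p = 0.000189). Day 0 lay above all late cultures in each. Ebna1bp2 and Bop1, assembly factors of the large subunit, were 2.59-fold lower and 1.96-fold lower as a low estimate (adjusted p = 0.002 and adjusted p = 0.000966); another, group-specific probe set of Ebna1bp2 was not called. The calls of Fbl, the methylase of box C/D particles (6.39-fold lower as a low estimate), and Gar1 of the box H/ACA particles (6.58-fold lower as a low estimate) were lost, that of Fbl without B0 (adjusted p = 0.187) and that of Gar1 without B0 (adjusted p = 0.0544), the fold of Fbl being 10.4 without A0 and 3.93 without B0.

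Translation and nuclear transport genes were lower in part. Of translation factors and tRNA synthetases 17.2%, and of cytosolic ribosomal proteins 18%, were called lower, against 6.08% of all probe sets. Among translation factors and tRNA synthetases, 11 of 64 probe sets were lower and 1 was higher, with a median of -0.64; the lower count was 17 with experiment as a replicate block, 7 without A14 and 4 without B0. Eif6, which keeps free large ribosomal subunits apart from small ones, had negative values in all late cultures and clear ones at day 0 (-427, -296, -589, -527 and -641 late, against 768 and 963 at day 0), at least 6.1-fold lower (adjusted p = 2.81e-05). Eef1g, a subunit of the elongation factor 1 complex, measured 1219, 1199, 1345, 1160 and 1143 late, against 3140 and 4005 at day 0 on a family probe set, 2.93-fold lower (adjusted p = 0.00155). The exception was Eif4a2, a helicase paralog of the initiation factor, with 7189, 8689, 5998, 6380 and 6581 late, against 1360 and 1732 at day 0, 4.5-fold higher (adjusted p = 0.000175); its groups did not overlap. Cytosolic ribosomal proteins had 9 of 50 lower and none higher, 15 with experiment as a replicate block, 5 without A0, 5 without A11 and 4 without B0. The held members were Rpl12 and Rpl29 of the large subunit, 2.74-fold lower and 2.54-fold lower (adjusted p = 0.00071 and adjusted p = 0.000699) on family probe sets that pseudogene copies can share.

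Importins and exportins carry cargo through the nuclear pore under the control of the GTPase Ran. Of 31 probe sets of this system, 11 were lower (35.5%) and none was higher, with a median of -0.90 and a count of 6 without B0. Kpna2, an importin alpha, measured 3084, 2039, 1814, 1837 and 3054 late, against 11308 and 7748 at day 0, 4.07-fold lower (adjusted p = 0.00045). Ran measured 2512, 1828, 1579, 1228 and 2136 late, against 4955 and 5349 at day 0, 2.86-fold lower (adjusted p = 0.00213) on a family probe set. Neither gene's late range touched day 0. In the list of splicing and hnRNP proteins 14.3% of probe sets were called lower, against 6.08% of all. Splicing and hnRNP proteins had 9 of 63 lower, none higher and a median of -0.61, with a count of 15 with experiment as a replicate block and 3 without B0. Syncrip, an hnRNP-like protein among the 30 largest decreases, measured 367, 225, -63, 128 and 160 late, against 1619 and 1142 at day 0, 7.07-fold lower as a low estimate (adjusted p = 0.000124), with day 0 above every late culture. Pa2g4, a growth-regulated protein that binds ribosomes, was 7.08-fold lower as a low estimate (adjusted p = 0.00269) on 1 of 2 family probe sets that were both lower, and another of its probe sets was not called.

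Amino acid synthesis split by enzyme. Of its list 29.0% was called lower and 6.45% higher, against 6.08% and 4.84% of all probe sets. In the list of amino acid and polyamine metabolism 9 of 31 probe sets were lower and 2 higher, and the lower count was 5 without A0 and 4 without B0. Phgdh, the opening enzyme of serine synthesis, measured 543, 812, 964, 703 and 518 late, against 3464 and 2908 at day 0, 4.61-fold lower (adjusted p = 0.000127). Asns, asparagine synthetase, measured 325, 533, 580, 542 and 492 late, against 1710 and 1512 at day 0, 3.32-fold lower (adjusted p = 0.00347). Both were lower in every late culture than at day 0. Ass1, the argininosuccinate synthase of arginine synthesis, was at the floor at day 0 and above it in every late culture (933, 830, 757, 833 and 881 late, against -218 and 32 at day 0), at least 4.27-fold higher (adjusted p = 0.000148) on a family probe set. A pair of mitochondrial proteins were lower, Cycs, cytochrome c, with 1135, 1310, 781, 993 and 875 late, against 4056 and 3324 at day 0 (3.67-fold lower, adjusted p = 0.000814), and the ADP/ATP carrier Slc25a5 with 512, 662, 508, 497 and 772 late, against 2450 and 3502 at day 0 (5.04-fold lower, adjusted p = 0.000151), both on family probe sets and both without overlap between groups. Oxidative phosphorylation as a list was near the background, with 2 higher and 3 lower of 47 and a median of -0.08; the lower count was 1 without A0.

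Protein turnover genes were called lower more often than higher. The constitutive proteasome and ubiquitin list had 14 of 55 probe sets lower (25.4%) and 2 higher, but only 3 without B0. A pair of deubiquitinases that sit on the proteasome held: Usp14 measured 55, 120, -14, 113 and -9 late, against 528 and 993 at day 0, at least 5.13-fold lower (adjusted p = 0.000196), and Uchl5 measured 324, 506, 114, 424 and 447 late, against 1368 and 1943 at day 0, 4.83-fold lower as a low estimate (adjusted p = 0.00116). All late values of both were under day 0. Ube2h, a ubiquitin-conjugating enzyme, went the other way, with 1270, 1077, 1330, 1165 and 966 late, against 312 and 17 at day 0 (5.5-fold higher as a low estimate, adjusted p = 0.000164). The chaperone list was mixed, 6 higher and 12 lower of 55, with 6 lower and 2 higher without A0 and 4 lower without B0. Its held members were Cryab, a small heat shock protein of the lens and of stressed cells, at 3680, 4353, 5144, 3190 and 3239 late, against 1413 and 1504 at day 0 (2.64-fold higher, adjusted p = 0.00143, family probe set), and Dnajc2, a ribosome-associated cochaperone, at 43, 68, 181, 98 and 34 late, against 491 and 334 at day 0 (2.73-fold lower as a low estimate, adjusted p = 3.32e-05). The chaperonin subunit Cct6a was 6.67-fold lower as a low estimate (adjusted p = 0.0131), a call that ended without A0 (adjusted p = 0.0505) and without B0 (adjusted p = 0.166).

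Genes of antigen presentation were called in the lower direction alone, and those of the interferon response in both. The immunoproteasome and antigen presentation list had 8 of 30 probe sets lower (26.7%), 7 of them held, and none higher. Beyond the catalytic subunits, Tap1, which pumps peptides into the endoplasmic reticulum, measured 194, 261, 465, 427 and 598 late, against 1827 and 1184 at day 0, 4.09-fold lower (adjusted p = 0.0011). Psme1, a subunit of the proteasome activator PA28, measured 529, 827, 909, 845 and 868 late, against 2162 and 2189 at day 0, 2.78-fold lower (adjusted p = 0.00177). Both day 0 cultures exceeded all late ones in each. B2m, the light chain of class I molecules, was not called, at 16576, 16924, 12639, 16218 and 9737 late, against 15945 and 6200 at day 0 with overlapping groups (0.51 ± 0.40, adjusted p = 0.507). Of 43 interferon signalling and response probe sets, 10 were lower (23.3%, against 6.08% of all) and 2 higher (4.65%, against 4.84%). Their median was 0.07, near that of all probe sets. The higher were Ifit3, an interferon-induced antiviral protein, and Ifngr1, part of a receptor for interferon gamma (at least 3.76-fold and at least 2.40-fold higher), named after their values were seen, and neither call held: without B0 the adjusted p was 0.0803 for Ifit3 and 0.117 for Ifngr1. Samhd1, a hydrolase of deoxynucleotides induced by interferon, measured -18, 49, 219, 119 and 219 late, against 634 and 897 at day 0, 4.49-fold lower as a low estimate (adjusted p = 0.000203), and Isg15, a ubiquitin-like modifier, 163, 126, 120, -114 and 267 late, against 486 and 302 at day 0, 1.82-fold lower as a low estimate (adjusted p = 0.0017). The late values of both stayed under day 0, and for Isg15 all but B9 were at the floor. Igtp, an interferon-inducible GTPase, measured 65, 167, 20, -117 and 259 late, against 2600 and 3618 at day 0, with every late culture under both day 0 values. Irf1, a transcription factor of the response, was 2.79-fold lower (adjusted p = 0.0101) with 1320, 964, 1489, 1236 and 813 late, against 4505 and 2241 at day 0, and its call ended without A0 (adjusted p = 0.195).

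Actin-associated genes were lower more often than higher, at 14.3% and 4.76% of probe sets, against 6.08% and 4.84% of all. Of 84 probe sets, 12 were lower and 4 higher (2 without A0), with a median of -0.21. Tagln2, a calponin-like actin binder, measured 908, 711, 517, 597 and 580 late, against 3396 and 3300 at day 0, 5.15-fold lower (adjusted p = 0.000653). Zyx, zyxin of focal adhesions, measured 1207, 1935, 513, 1291 and 1449 late, against 5526 and 5595 at day 0, 4.73-fold lower (adjusted p = 0.00087). Pdlim1, a LIM protein of stress fibres, measured 113, 325, 289, 367 and 358 late, against 2037 and 2155 at day 0, 7.47-fold lower as a low estimate (adjusted p = 0.00127). Late and day 0 values did not overlap in any of them. Tmsb10, which binds actin monomers, was 3.09-fold lower (adjusted p = 0.000572) on 1 family probe set and not called on another. Acta2, an actin of contractile cells, was at least 8.94-fold lower (adjusted p = 0.000124), 5.06-fold without A0 and 15.8-fold without B0. Tubb3, a tubulin typical of neurons, measured 530, 459, 275, 479 and 420 late, against 1954 and 1261 at day 0, 3.72-fold lower (adjusted p = 0.00171). Krt18, a keratin filament protein, measured 1129, 1013, 582, 453 and 896 late, against 5437 and 4234 at day 0 and was 6.23-fold lower (adjusted p = 0.000134), while its partner Krt8 was near the floor and not called, at 153, 85, 204, -22 and 44 late, against 215 and 101 at day 0 with overlapping groups. Vim, vimentin, was 3.14-fold lower (adjusted p = 0.0243) and lost its call without A0 (adjusted p = 0.133), without A14 (adjusted p = 0.0541) and without B0 (adjusted p = 0.126).

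**Figure D2:**
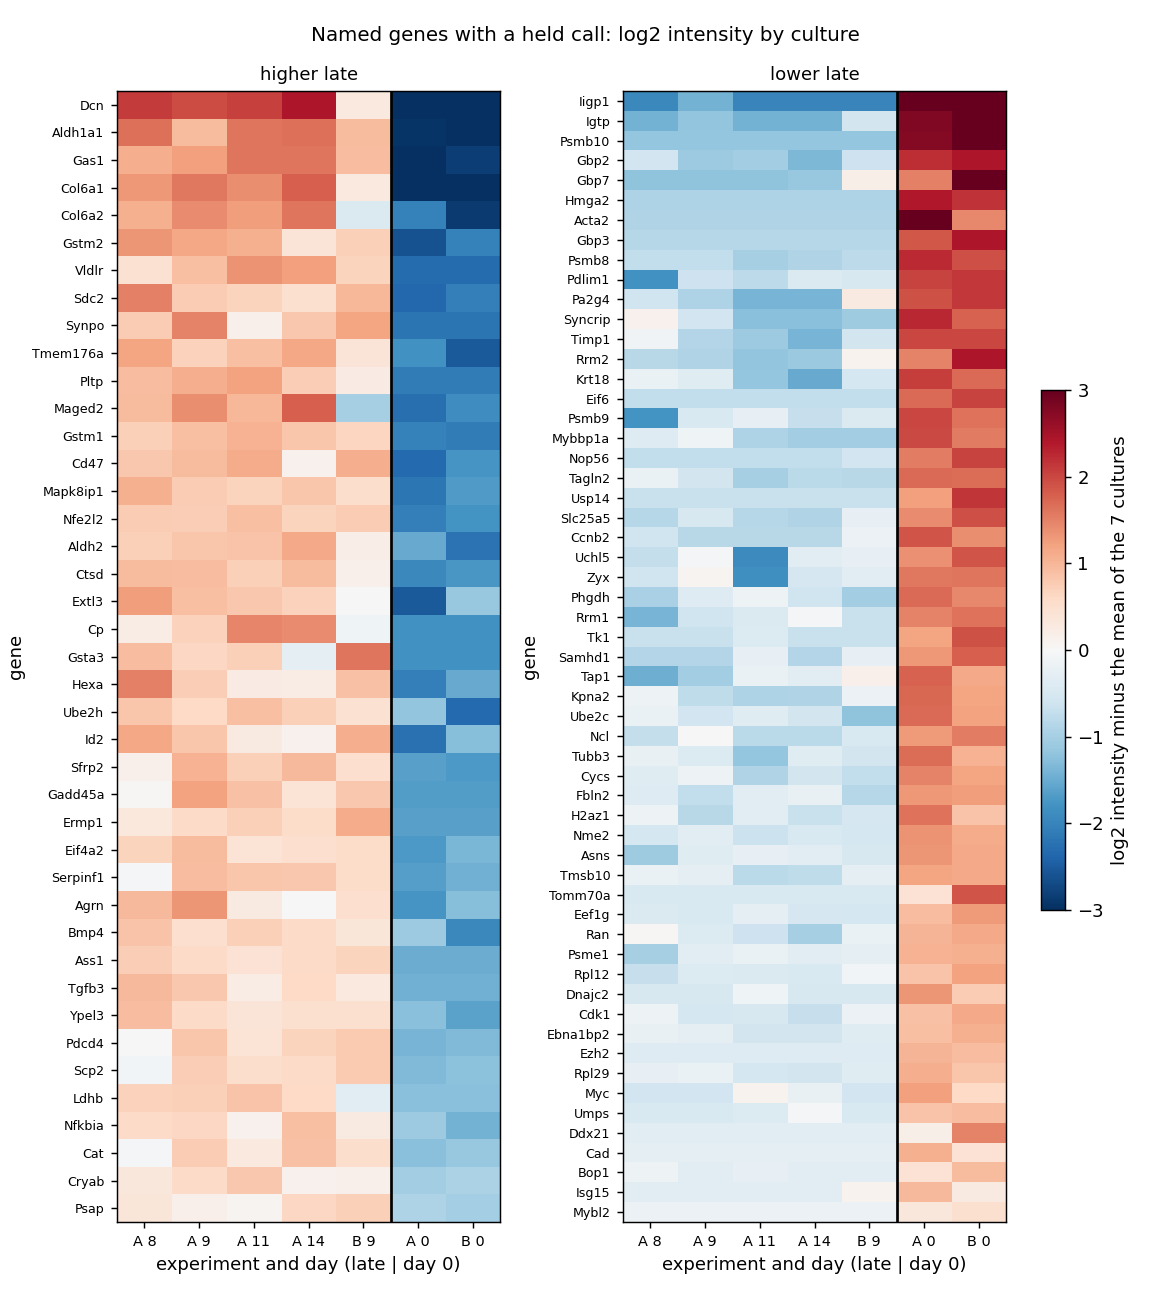
Log2 intensity of named genes with a held call in each culture (columns: 5 late cultures left of the line, 2 day 0 cultures right of it), after subtraction of the gene's mean over the 7 cultures; colours end at 3 and -3. Rows run by the size of the difference; the late columns of the left panel are mostly red and its day 0 columns blue, the right panel is mostly the reverse, and exceptions include Col6a2 and Maged2, which are pale blue in B9.

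On the rising side, lysosomal genes led by number. Of 54 probe sets, 15 were higher (27.8% against 4.84% overall) and none was lower; 50 of the 54 differences were positive and the median was 0.81. The count was 7 without B0. Ctsd, cathepsin D, the main aspartic protease of the lysosome, measured 12489, 12237, 10650, 12440 and 7157 late, against 1708 and 1929 at day 0, 5.93-fold higher (2.57 ± 0.39, SE, adjusted p = 0.000235). Hexa, the alpha subunit of hexosaminidase, measured 1661, 980, 692, 679 and 1075 late, against -27 and 205 at day 0, 5.66-fold higher as a low estimate (adjusted p = 0.00087). Psap, precursor of the saposins that help degrade sphingolipids, measured 5673, 4912, 4691, 6722 and 7223 late, against 2310 and 2170 at day 0 on a family probe set, 2.57-fold higher (adjusted p = 0.00161). Every late culture was above both day 0 cultures in each of these genes. The letters CACGTG are the E-box core of the element that marks lysosomal genes for the factor TFEB. CACGTG occurred in 5 of the 12 higher lysosomal genes with a promoter in the table (41.7%). The share was 6.05% over all 27025 genes of the table, on the arrays or not. These letters stand in capitals in the promoter of Ctsd (chr7:142387828-142388077, minus strand).
Ctsd: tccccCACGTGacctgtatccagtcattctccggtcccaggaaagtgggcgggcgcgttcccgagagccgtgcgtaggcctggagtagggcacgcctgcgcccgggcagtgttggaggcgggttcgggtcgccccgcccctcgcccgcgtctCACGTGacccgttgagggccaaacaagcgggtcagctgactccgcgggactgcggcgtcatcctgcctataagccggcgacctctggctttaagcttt

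The promoter matches given were picked after the shares were seen, out of 25 combinations of 5 motifs and 5 gene groups; a further motif searched was GCGGGAA, letters of the E2F site, and further groups were the lower genes of interferon response and antigen presentation, of nucleotide synthesis and of the nucleolus. GCGGGAA occurred in none of the 12 mitotic genes, in 1 of 9 nucleotide synthesis genes and in 1 of 9 nucleolar genes, against 3.84% of all genes. CCAAT occurred in 2 of the 9 nucleolar genes (22.2%), 4 of the 9 nucleotide synthesis genes (44.4%), 5 of the 12 lysosomal genes (41.7%) and 6 of the 14 interferon and antigen genes (42.9%). CACGTG was not particular to lysosomal genes, being in 3 of the 12 mitotic genes (25%) and 2 of the 9 nucleotide synthesis genes (22.2%) as well. Promoters were in the table for 12 of 17 mitotic and 14 of 16 interferon and antigen genes, so each share rests on few genes, and none was tested. The shares of all genes cover the whole promoter table, not only genes on the arrays or above the floor. They are thus no matched background for the genes called here.

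Some lipid transport genes were called higher as well, 31.25% of probe sets, against 4.84% of all. Of 16 probe sets, 5 were higher and 1 lower, with a median of 0.87; the higher count was 8 with experiment as a replicate block and 3 without B0. Pltp, phospholipid transfer protein, measured 1141, 1277, 1400, 1000 and 722 late, against 120 and 54 at day 0, at least 7.66-fold higher (adjusted p = 0.000107). Vldlr, the receptor of very low density lipoprotein, measured 955, 1316, 1790, 1640 and 1115 late, against 142 and 131 at day 0, 9.38-fold higher as a low estimate (adjusted p = 0.000323). Scp2, a sterol carrier of peroxisomes, measured 772, 1371, 1180, 1231 and 1423 late, against 329 and 350 at day 0, 3.45-fold higher (adjusted p = 0.00088). The late cultures stood above day 0 throughout. Cholesterol synthesis, with 8 probe sets tested, had none called, and vesicle traffic had 2 of 90 higher and none lower.

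Some enzymes that handle oxidants and foreign compounds were called higher. Among glutathione transferases and xenobiotic enzymes, 4 of 21 probe sets were higher (19.05%, against 4.84% of all) and 1 lower. Gstm1, a mu-class glutathione transferase, measured 5102, 5823, 6368, 5501 and 4871 late, against 765 and 733 at day 0, 7.36-fold higher (2.88 ± 0.38, SE, adjusted p = 7.93e-05). Gsta3, of the alpha class, was at the floor at day 0 and measured 1307, 1074, 1139, 578 and 2121 late, against 18 and -3 at day 0, at least 5.78-fold higher (adjusted p = 0.00162). Members of each class are close in sequence, so their probes may share signal. Nfe2l2, the transcription factor Nrf2 that activates such enzymes under oxidative stress, measured 1543, 1497, 1686, 1446 and 1540 late, against 220 and 259 at day 0, 6.45-fold higher (adjusted p = 1.22e-05), with the late cultures within a narrow range. The antioxidant list lay nearer the background, with 3 of 31 probe sets higher (9.68%, against 4.84% of all) and 1 lower (3.23%, against 6.08%). Its median difference was 0.18, against 0.11 for all probe sets. Cat, catalase, measured 320, 564, 408, 617 and 486 late, against 127 and 153 at day 0, 3.18-fold higher as a low estimate (adjusted p = 0.00135), and Cp, the copper ferroxidase ceruloplasmin, measured 808, 1132, 1914, 1851 and 633 late, against 153 and 69 at day 0, at least 5.83-fold higher (adjusted p = 0.00143). Aldh2, the mitochondrial aldehyde dehydrogenase, measured 1570, 1715, 1734, 2105 and 1107 late, against 338 and 209 at day 0 on a family probe set, 6.06-fold higher (adjusted p = 0.000361). None of these genes had a late value as low as a day 0 value.

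Matrix genes moved both ways. Proteoglycans had 5 of 15 probe sets higher and 1 lower, collagens 5 of 32 higher and 2 lower, and glycoproteins of the matrix 5 higher and 5 lower of 26. In that order, 33.3%, 15.6% and 19.2% were higher, against 4.84% of all. The lower shares were 6.67%, 6.25% and 19.2%, against 6.08%. The collagen count was 2 without B0. The higher glycoprotein count was 3 without A0, 3 without A9, 3 without A11 and 0 without B0, and the lower one was 1 without B0. Agrn, the basement membrane proteoglycan agrin, measured 949, 1212, 580, 480 and 682 late, against 85 and 199 at day 0, 4.4-fold higher as a low estimate (adjusted p = 0.0017). Serpinf1, a secreted serpin that inhibits angiogenesis, measured 729, 1422, 1330, 1298 and 1087 late, against 239 and 276 at day 0, 4.45-fold higher (adjusted p = 0.000173). In both, the late values were above day 0. Fbln2, an elastic-fibre glycoprotein, was lower, at 626, 497, 648, 710 and 456 late, against 2023 and 1964 at day 0 (3.44-fold lower, adjusted p = 0.00215), as was Timp1, an inhibitor of metalloproteinases, at 484, 283, 245, 188 and 352 late, against 2073 and 2065 at day 0 (6.95-fold lower as a low estimate, adjusted p = 0.000788). Their late values lay under day 0. Cd47, a membrane partner of integrins and thrombospondin, measured 1749, 1923, 2148, 1089 and 2130 late, against 44 and 293 at day 0, 7.3-fold higher as a low estimate (adjusted p = 0.00127). The calls of Ogn, the small proteoglycan osteoglycin (at least 6.22-fold higher), and of Plat, tissue plasminogen activator (5.86-fold higher), were not held: that of Ogn ended in experiment A alone (adjusted p = 0.0512) and that of Plat without B0 (adjusted p = 0.18), where its fold was 2.86, against 12.0 without A0.

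Growth arrest genes, a list drawn up with earlier results known, were higher in 6 of 20 probe sets (30%, against 4.84% of all). None was lower, and the median was 0.68. Ypel3, a small protein that slows growth when overexpressed, measured 4315, 3379, 2987, 3202 and 3196 late, against 961 and 752 at day 0, 3.98-fold higher (adjusted p = 7.93e-05). Gadd45a, a growth arrest and DNA damage protein, was at the floor at day 0 and measured 456, 1027, 822, 597 and 788 late, against -180 and 20 at day 0, at least 5.04-fold higher (adjusted p = 0.0011). Pdcd4, an inhibitor of translation initiation, measured 375, 667, 500, 597 and 644 late, against 60 and 150 at day 0, 3.75-fold higher as a low estimate (adjusted p = 0.00143). All late values exceeded those of day 0. The direct regulators of the G1 phase gave no such common direction, with 3 higher (0 without A0, 1 without A8, 1 without A9 and 1 without B0) and 2 lower of 29. Myc, a growth-promoting transcription factor, was low and lower late, at -2, -15, 223, 178 and 121 late, against 485 and 315 at day 0 (2.41-fold lower as a low estimate, adjusted p = 0.00116). Cdkn1b, the Cdk inhibitor p27, was 3.02-fold higher (adjusted p = 0.0337) on 1 of 3 probe sets, a call lost without A0 (adjusted p = 0.272), without A8 (adjusted p = 0.0689), without A9 (adjusted p = 0.067), without B0 (adjusted p = 0.0564) and without B9 (adjusted p = 0.0592). Cdkn1a, the inhibitor p21, was not called, with 595, 425, 216, 315 and 679 late, against 372 and 340 at day 0 and overlapping groups. Nor were Ccnd1, cyclin D1, at 1526, 2004, 2245, 1781 and 1862 late, against 2904 and 2571 at day 0 (-0.55 ± 0.31, adjusted p = 0.329), or Rb1, a pocket protein at the floor in all but 1 of the 7 cultures.

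Of signalling genes, the TGF-beta and BMP list had 6 of 33 probe sets higher (18.2%, against 4.84% of all) and 1 lower. Bmp4, a ligand that patterns the developing inner ear, measured 3431, 2685, 3069, 2783 and 2428 late, against 886 and 496 at day 0, 4.31-fold higher (2.11 ± 0.29, SE, adjusted p = 0.000127). Tgfb3, a ligand of the TGF-beta branch, measured 746, 669, 445, 578 and 470 late, against 108 and -3 at day 0, at least 4.04-fold higher (adjusted p = 0.00143). Id2, an inhibitor of basic helix-loop-helix factors and a common target of BMP signals, measured 6453, 5158, 3470, 3176 and 6166 late, against 613 and 1198 at day 0, 5.47-fold higher (adjusted p = 0.000395). The ranges of late and day 0 values were apart in each gene. Sfrp2, a secreted protein that binds Wnt ligands, measured 515, 957, 760, 914 and 660 late, against 151 and 85 at day 0, 5.09-fold higher as a low estimate (adjusted p = 0.000228). Nfkbia, the inhibitor of NF-kappaB, measured 1018, 1050, 747, 1275 and 829 late, against 322 and 258 at day 0, 3.35-fold higher (adjusted p = 0.00121). Notch1 was not called (0.53 ± 0.47, adjusted p = 0.559), and its target Hes1 was above the floor in a single late culture.

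**Figure D3:**
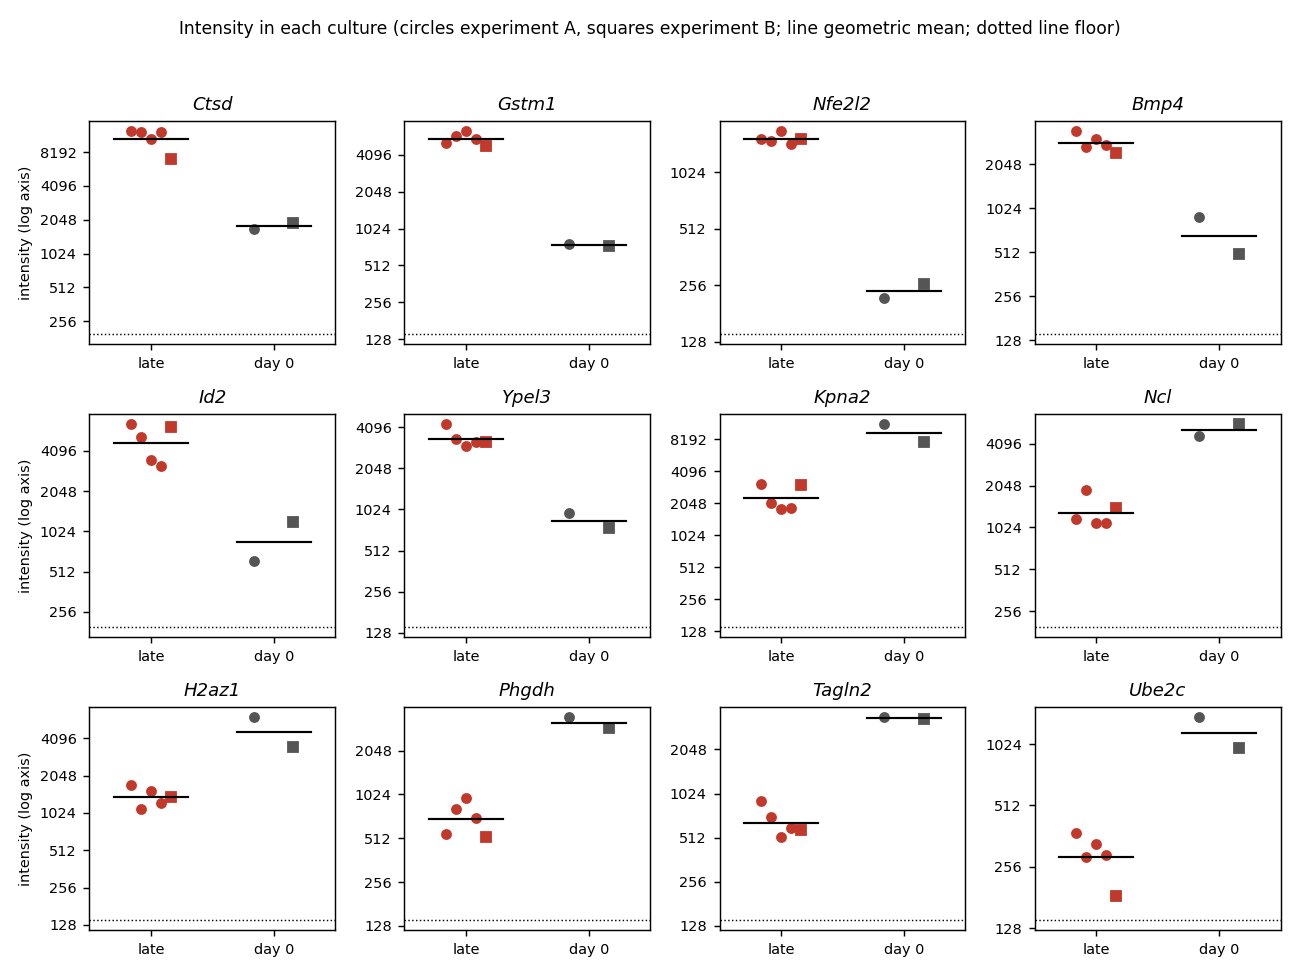
Intensity of 12 named genes in each culture on log2 axes that differ between panels, with values raised to the floor (dotted). Red points are late cultures and grey points day 0, circles experiment A and squares experiment B, lines the geometric means; Ctsd, Gstm1, Nfe2l2, Bmp4, Id2 and Ypel3 are higher late without overlap, and Kpna2, Ncl, H2az1, Phgdh, Tagln2 and Ube2c lower.

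The labelled identity was set against marker genes. Of 39 hair cell markers, 16 had a probe set, and none of the 10 probe sets tested was called in either direction. Their summed intensity, with low values at the floor, was 5258 to 6828 late and 5025 to 6908 at day 0. Atoh1 and Gfi1, the transcription factors that define hair cells, were at the floor in all 7 cultures. Myo7a, an unconventional myosin of hair cells and the cause of a form of deafness when mutated, measured 227, 238, 449, 374 and 393 late, against 300 and 198 at day 0, just over the floor with overlapping groups (0.41 ± 0.39, adjusted p = 0.589). Myo6, at 142, 121, 303, 391 and 279 late, against 237 and 144 at day 0, was not called either (0.32 ± 0.42, adjusted p = 0.698), nor was the calcium-binding protein Calb2, at 872, 742, 715, 970 and 490 late, against 569 and 290 at day 0 (0.86 ± 0.45, adjusted p = 0.27). No probe set carried the symbols Pou4f3 or Chrna9.

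Markers of the otic epithelium and supporting cells were higher in 8 of 23 probe sets (34.8%) and lower in none; the count was 5 without A0, 5 without A8 and 4 without B0. Of these 8 calls, 3 held. The summed intensity of the markers was 22199 to 27483 late and 9529 to 10534 at day 0, and Bmp4 and Id2 are among them. Defining members did not all take part: Sox2, Gjb2, Hes5 and Fgfr3 were at the floor in all 7 cultures. Gata3, a transcription factor needed for the ear, was at the floor at day 0 and measured 781, 851, 401, 575 and 488 late, against 151 and 190 at day 0, at least 3.01-fold higher (adjusted p = 0.0311), a call that ended without A0 (adjusted p = 0.127), without A8 (adjusted p = 0.0622), without A9 (adjusted p = 0.068), without A14 (adjusted p = 0.0513), without B0 (adjusted p = 0.188) and in experiment A alone (adjusted p = 0.175). Pax2, another otic factor, was not called, at 496, 194, 400, 202 and 301 late, against 232 and 88 at day 0 (0.48 ± 0.46, adjusted p = 0.593).

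Markers of other cells were counted in the same way. None was called among 20 muscle, 20 macrophage and blood, 9 endothelial or 9 melanocyte and glial probe sets. The blood list summed to 11959 to 23522 late and 7592 to 13571 at day 0, the muscle list to 13374 to 19194 late and 13273 to 18086 at day 0, the endothelial list to 4532 to 6653 late and 4055 to 4930 at day 0, and the glial list to 6371 to 8635 late and 5429 to 7031 at day 0. Spi1, Csf1r and Adgre1 of macrophages, Pecam1 and Cdh5 of endothelium, Acta1 and Myf5 of muscle, and Mitf and Tyr of melanocytes were at the floor in all 7 cultures. Fibroblast and mesenchymal markers gave 2 higher and 3 lower of 16 (1 without A0 and 1 without B0 for the lower) and summed to 16041 to 32343 late and 15157 to 20261 at day 0; Dcn was higher and Acta2 lower, while Col1a2, Pdgfra and Thy1 were at the floor throughout. Neuronal markers gave 2 higher and 1 lower of 10 and summed to 8330 to 10024 late and 7296 to 8686 at day 0. Neither higher call held, and Scg2, described below, is among them. Neurod1, Map2 and Snap25 were at the floor. The epithelial cadherin Cdh1 was under the floor in all 7 cultures, and Cdh2, the neural cadherin, measured 193, 271, 201, 226 and 327 late, against 344 and 739 at day 0 and was not called (-1.08 ± 0.51, adjusted p = 0.218).

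Several further genes were among the 30 largest changes. Among the higher, Tmem176a, a membrane protein of unsettled function that ranked 10th, measured 2861, 2050, 2369, 2822 and 1651 late, against 358 and 221 at day 0, 8.19-fold higher (adjusted p = 3.40e-05). Maged2, an adaptor protein of the MAGE family, measured 1815, 2474, 1893, 3292 and 472 late, against 190 and 260 at day 0. It was 7.38-fold higher as a low estimate (adjusted p = 0.00157), with a difference of 3.54 in experiment A and 0.86 in experiment B. Extl3, a glycosyltransferase of heparan sulfate synthesis, measured 1925, 1505, 1409, 1312 and 801 late, against 126 and 369 at day 0, 5.87-fold higher as a low estimate (adjusted p = 0.000175), with folds of 3.63 and 9.49 without A0 and without B0. In each, the late range stayed above day 0. Mapk8ip1, a scaffold of JNK signalling, was 6.55-fold higher as a low estimate (adjusted p = 1.22e-05) on a group-specific probe set, but its other probe set was not called. The remaining increases of that size did not hold. Scg2, a secretory granule protein, and Tcn2, a carrier of vitamin B12, were 5.92-fold higher as a low estimate and at least 5.99-fold higher and ended in experiment A alone (adjusted p = 0.0691) and in experiment A alone (adjusted p = 0.0566). Nrep, a small neuronal protein, did so too, in experiment A alone (adjusted p = 0.0594). Atp1b1, the beta subunit of the sodium pump, was bright on all arrays (26104, 26567, 43927, 24401 and 8978 late, against 3493 and 4106 at day 0) and 6.12-fold higher (adjusted p = 0.0106), but ended without A0 (adjusted p = 0.0846) and without B0 (adjusted p = 0.0771). Igfbp2, which binds insulin-like growth factors, was at least 5.75-fold higher (adjusted p = 0.00762) and ended without A0 (adjusted p = 0.0526), without B0 (adjusted p = 0.0731) and in experiment A alone (adjusted p = 0.111).

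Some genes crossed the floor on every array. In all, 126 probe sets were above it in all 5 late cultures and in neither day 0 culture (1.63% of those tested), and 82 were above it in no late culture and in both day 0 cultures (1.06%). The 82 became 54 with the lower floor. Ermp1, a metallopeptidase of the endoplasmic reticulum, came on with 542, 647, 712, 640 and 940 late, against 63 and 111 at day 0, at least 4.85-fold higher (adjusted p = 0.000814). Cebpd, a transcription factor of the acute phase, came on with 1234, 932, 251, 1188 and 1709 late, against 119 and 107 at day 0, at least 4.54-fold higher (adjusted p = 0.044). Its call ended in 6 of the 7 fits without 1 culture and in experiment A alone, where its fold was 3.9. Among those that went under the floor, Tomm70a, a mitochondrial import receptor, measured 50, 50, 18, 25 and 117 late, against 262 and 718 at day 0 and was at least 3.08-fold lower (adjusted p = 0.000788), with folds of 5.09 and 1.86 without A0 and without B0. Ddx21, a nucleolar helicase, measured -24, 39, -64, -99 and 99 late, against 202 and 495 at day 0, at least 2.24-fold lower (adjusted p = 0.00119), with folds of 3.51 and 1.43 in those fits. For both, B0 was the higher of the day 0 values. The mitotic kinase Aurkb (at least 2.32-fold lower) and the helicase Ddx39a (at least 3.1-fold lower) both lost their calls without B0 and in experiment A alone. The fold of Aurkb was 1.61 without B0, and that of Ddx39a was 6.94 without A0 and 1.38 without B0.

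Common reference genes and proliferation markers were examined whatever their values. Actb, cytoplasmic actin, measured 6926, 5547, 7031, 5719 and 4177 late, against 7979 and 4174 at day 0, and Gapdh, a glycolytic enzyme, 11682, 12307, 16455, 15659 and 9857 late, against 16676 and 7648 at day 0. Neither was called (0.00 ± 0.34 and 0.20 ± 0.36), and their directions turned under several other settings. Hspa5, the chaperone of the endoplasmic reticulum, was not called, with 3675, 3490, 3301, 2252 and 6248 late, against 2810 and 4196 at day 0 (0.06 ± 0.35, adjusted p = 0.954). Nor were the cytosolic chaperones Hspa8 (0.48 ± 0.41, adjusted p = 0.534) and Hsp90aa1 (-0.87 ± 0.41, adjusted p = 0.212), whose groups overlapped. Mki67, the Ki-67 proliferation marker, was 2.59-fold lower (adjusted p = 0.00557) and lost its call without A0 (adjusted p = 0.0599), and Top2a, a topoisomerase of dividing cells, was 3.83-fold lower as a low estimate (adjusted p = 0.00489) on its family probe set but was not called in experiment A alone (adjusted p = 0.0909). Pcna, the sliding clamp of replication, was not called (-1.17 ± 0.41, adjusted p = 0.0799), although its late values all lay under day 0; with experiment as a replicate block it was (-0.96, adjusted p = 0.0447). Glycolysis had 3 higher (5 with experiment as a replicate block and 1 without B0) and 1 lower of 29, among them Ldhb, a lactate dehydrogenase subunit, at 759, 771, 863, 717 and 375 late, against 76 and 74 at day 0 (at least 3.39-fold higher, adjusted p = 0.00295, family probe set).

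Both experiments can be read side by side, since they share no array. The labels do not say whether their cultures were independent. Experiment A alone called 213 probe sets higher and 342 lower. Experiment B was not used in that fit. Its day 9 minus day 0 difference had the same sign in 206 of the 213 (96.7%, where 49.0% of all probe sets were positive in B). It had the same sign in 291 of the 342 (85.1%, where 30.5% of all were negative). A probe set at the floor on both arrays has a difference of 0. The difference in B was 0 in 2 of the 213 and in 36 of the 342, and the remaining ones had the opposite sign. The median difference of the 213 was 1.89 in experiment A and 1.39 in experiment B, and that of the 342 was -1.51 in experiment A and -1.25 in experiment B. Over all 7726 probe sets the differences of both experiments had a Pearson r of 0.64 and a Spearman rho of 0.51, and r was 0.72 over the 3140 above the floor in all 7 cultures. Genes are not independent replicates, and these values describe the arrays. A contrast of the late minus day 0 difference between the experiments, added after the data were seen, passed the threshold in 95 probe sets, of which 22 were among those lower late, none among those higher late and 73 among those not called. It sets A0, B0 and B9 against each other as 1 array each on a design, with the spread taken from the early, middle and late days of experiment A and assumed to hold for them, so it describes these arrays and does not show that the experiments differ.

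**Figure D4:**
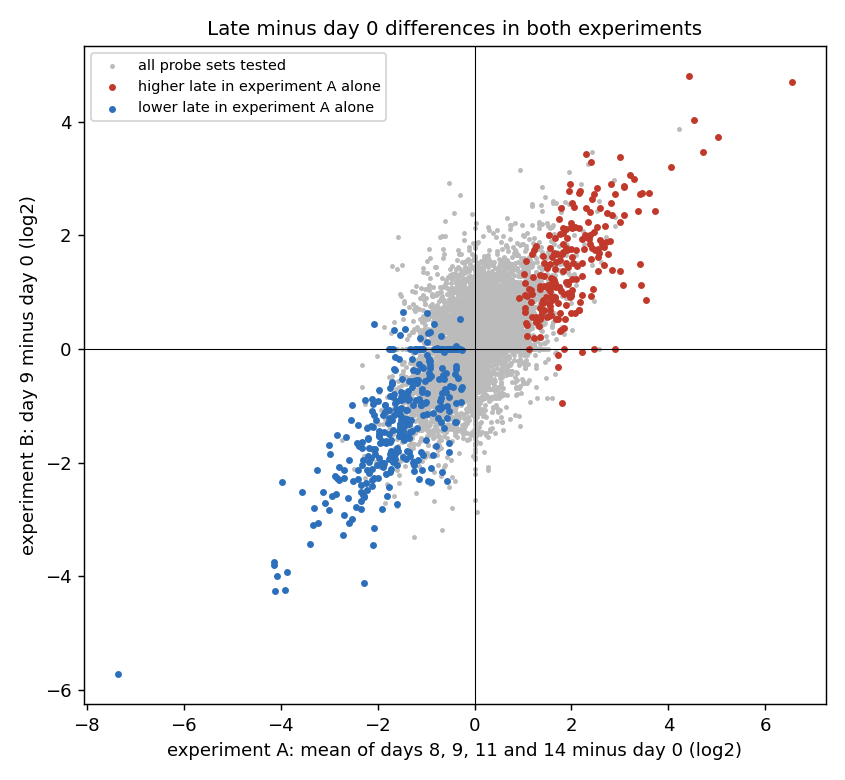
Difference between late and day 0 (log2) for each of the 7726 probe sets, in experiment A (x axis, mean of 4 late days) and in experiment B (y axis, day 9). Red and blue points are the 213 and 342 called higher and lower in experiment A alone; 206 of the red lie above 0 on the y axis and 291 of the blue below it.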

How the data were processed

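The authors deposited array intensities, 1 linear whole number per probe set and array, of which 22.9% on design a and 33% on design b were negative. All arrays had a trimmed mean near 300, so the intensities were used as deposited; which software and background method made them is not given in the sources used here. Of 13057 probe sets without controls, 7542 had 1 gene symbol in the platform annotation, 224 several and 5291 none (4506 of these on design b), and no column of values was left unused. Some probe sets carry the manufacturer's suffix for a family or group of similar sequences, so the gene they report is uncertain. For many named genes this is stated where they are used. It also applies, without being stated there, to Actb, B2m, Ccnd1, Cdkn1a, Gapdh, Gar1, Hspa5, Hspa8, Nrep and Psmb9.

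As floor served the 75th percentile of the size of the negative values on a design, and the lower and higher floors were the 50th and 90th. Probe sets above it on at least 2 of the 16 arrays of their design were tested, 4294 and 3432. Log2 values computed from the deposited intensities went into limma 3.58.1 under R 4.3.3 (lmFit; eBayes, trend and robust set), 1 fit a design over all phases of the course with late against day 0 as the contrast, and p-values were adjusted over both designs. Ties at the floor show no spread, so such p-values can be too small. The code was tested on simulated data. Experiment pairs the samples: the labels give it, and differences between experiments A and B correlated between days in all 6 pairs of days on each design (r from 0.27 to 0.73). The main fit left experiment out, so its calls, standard errors and adjusted p-values do not use this pairing. The alternative fit with experiment as a replicate block called 1117 probe sets (527 higher and 590 lower).

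Named genes were the 11th to 30th largest called increases and decreases by gene, up to 8 held members of each of 52 gene lists, the 12 largest bounds in each direction, and a fixed list of markers; the brightest probe set stands for a gene. Tmem176a and Pdlim1 ranked 10th. The members, lists and rule were chosen with earlier results of these data known. Promoters are from RefSeq, and 1 of the 5 motifs searched in them is not reported here.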

Additional observations from a re-analysis of the deposited data

Results flagged for a closer look

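In the named genes whose 5 late values were all above the floor, the late culture farthest out was tested for its gap to the nearest of the others, which chance exceeds in about 1 group in 20; of 95 genes tested, 9 exceeded it. Day 9 of experiment B stood below the other late cultures for Ctsd (7157), Dcn (5146), Col6a2 (1062) and Ldhb (375), and above them for Rrm2 (560). Day 8 of experiment A stood below the others for Psmb9 (228), Psme1 (529) and Asns (325), and day 11 of experiment A for Pcna (349). In each of the called genes among these, that value was still on the late side of both day 0 values.

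The contrast of the late minus day 0 difference, experiment A minus experiment B (limma, adjusted over all 7726 probe sets), passed the threshold for 3 named genes. A0, B0 and B9 are 1 array each on a design, and the spread comes from the early, middle and late days of experiment A, so no replicate of experiment B bears on it. For Ddx21 (1.29, adjusted p = 0.00608) and Tomm70a (1.45, adjusted p = 0.0181) every late array was at the floor, so the contrast is only the gap between B0 and A0, and how far each experiment fell is not known. For Isg15 (-1.12, adjusted p = 0.00725) the late arrays of experiment A were at the floor, so its difference of -1.29 there is a bound, beside -0.18 in experiment B. For Actb and Gapdh every late culture of experiment A was under its day 0 value. In experiment B, day 9 was above day 0 for Gapdh (0.37) and level with it for Actb (4177 against 4174). The differences of experiment A minus experiment B, -0.35 for Actb and -0.63 for Gapdh, did not pass.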

How the results depend on the processing

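The number of arrays and the floor limit these results: 123 of the 374 higher calls and 249 of the 470 lower ones have arrays of the dimmer group at the floor, so their folds are bounds or low estimates. The total of 844 calls was 494 (219 higher and 275 lower) when only late and day 0 arrays were fitted, 555 (213 higher) in experiment A alone and 369 (186 and 183) with day 9 as the only late day; without the filter 249 were higher. With experiment as a replicate block it was 1117 (527 and 590), which ended no call of a named gene and added that of Pcna. Without 1 culture at a time the total ranged from 402 to 929, the higher calls from 165 to 413 and the lower ones from 237 to 516, the lowest each time without B0. The higher share of calls, 44.3%, was 52.4% on the arcsinh scale and 35.8% without A0, and stayed within 10 percentage points under every setting run. The calls of 120 named genes kept their direction in every setting and were lost in 102 of 2492 refits.

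Named genes that were not called turned sign in places, and the causes were not tested. In experiment A alone the difference was -0.35 for Actb, -0.042 for B2m, -0.039 for Cdkn1a, -0.27 for Gapdh and -0.10 for Myo6. With the replicate block it was -0.24 for Actb and -0.025 for Gapdh. With day 9 as the only late day it was -0.26 for Actb and -0.036 for Gapdh, and Actb was -0.063 with days 9 to 14. After quantile normalization it was -0.027 for Cdkn1a, -0.32 for Gapdh and -0.013 for Hspa8. With noise as a covariate it was -0.11 for Actb, -0.29 for Gapdh, -0.11 for Hspa8 and -0.14 for Pax2, and with the Gapdh control ratio -0.14 for Actb, -0.13 for Gapdh and -0.010 for Pax2. Without 1 culture at a time Actb ranged from -0.47 to 0.47, B2m from -0.18 to 1.19, Gapdh from -0.36 to 0.76, Hspa5 from -0.23 to 0.35, Krt8 from -0.11 to 0.0086 and Myo6 from -0.035 to 0.68. The probe sets above the floor late and not at day 0 (126) were 100 and 151 with the lower and the higher floor, and those not above it late but at day 0 (82) were 54 and 104. The correlation between the experiments was 0.52 with day 9 in both.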

Other observations

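Probe sets with no gene name here make up 81 of the 374 called higher (21.7%) and 139 of the 470 called lower (29.6%), against 2618 of all 7726 tested (33.9%), and 19 and 48 of the held calls. A further 5 and 24 of the called probe sets carry several symbols. A single gene was called in both directions on different probe sets: Hspa4, a relative of the Hsp70 chaperones that acts as a nucleotide exchange factor, chosen here after its values were seen. One of its probe sets measured 210, 245, 262, 303 and 282 late, against 907 and 1275 at day 0 (4.16-fold lower, adjusted p = 0.00132), and the other 1422, 1306, 601, 602 and 992 late, against 259 and 485 at day 0 (2.60-fold higher, adjusted p = 0.0243). The late and day 0 values did not overlap on either, and neither call held.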
